A study of Mus musculus with 30 samples.

Results

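The mouse genes Wnt7a and Wnt8a, Sfrp1, Sfrp2 and Notum, Fzd7, and Lef1 cover ligands, secreted antagonists, a receptor and a nuclear effector of Wnt signalling. Every probe set that names 1 of these 7 genes alone was taken from the 3 chips, which gave 13 of 36899 probe sets, for 7 of the 15964 genes that the chips name in this way. Of the 13, 11 passed the filter on dim probe sets (a mean intensity at or above the 30th percentile of the chip) and could be tested. All samples came from one 129-derived mouse embryonic stem (ES) cell line carrying Sox1-GFP, a fluorescent reporter of Sox1, a gene of the neuroectoderm. Apart from the undifferentiated ES cells, they were cultured as floating, embryoid body-like aggregates (the SFEB method) for 1 to 5 days. Sorts were by FACS. The Sox1-positive cells comprised 1 sample each of day 3, day 4 and day 5. The other aggregate cells comprised 1 sample each of day 1 with no sort label, day 2 E-cadherin-negative, day 2 E-cadherin-positive and day 3 Sox1-negative cells. The undifferentiated ES cells comprised 3 samples, sorted as E-cadherin-positive. The labels name no further allele or treatment and do not say whether the medium of a given aggregate sample held serum.

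Wnt proteins are lipid-modified ligands that leave the cell with the help of the carrier protein Wls and bind Frizzled receptors. In the branch that runs through beta-catenin, binding stops the destruction of beta-catenin, which then acts in the nucleus with Lef1 or one of its TCF relatives on DNA. Secreted frizzled-related proteins such as Sfrp1 and Sfrp2 bind Wnt proteins outside the cell, and Notum is a secreted esterase that removes the lipid a Wnt protein needs for receptor binding. In the early embryo, antagonists of this pathway are known from the anterior neural plate, and Wnt signals from more posterior neural tissue. In mouse ES cells the pathway is known for its part in self-renewal.

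Promoter windows are shown for Wnt7a and Sfrp2, whose signals moved together over the 10 samples (Pearson r = 0.91, with Wnt7a read on 166857_s_at). The window of Fzd7, the receptor, is also shown, because it holds a match to the site that Lef1 and its relatives recognise. Of the 7 genes, 4 had an entry among the RefSeq promoter windows of build GRCm38.p6, with 7 windows in all, of which Lef1 had 4. Each printed sequence is the 250 bases before the annotated start, 5′ to 3′ on the strand of the gene, and capitals mark a match to CTTTGAT or CTTTGAA or CTTTGTT or CTTTGTA on either strand.
Wnt7a: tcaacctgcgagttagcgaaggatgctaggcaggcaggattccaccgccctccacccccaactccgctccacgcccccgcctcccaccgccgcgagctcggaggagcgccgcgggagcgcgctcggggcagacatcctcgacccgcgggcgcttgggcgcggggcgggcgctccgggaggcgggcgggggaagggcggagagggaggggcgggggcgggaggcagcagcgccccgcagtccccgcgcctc
Sfrp2: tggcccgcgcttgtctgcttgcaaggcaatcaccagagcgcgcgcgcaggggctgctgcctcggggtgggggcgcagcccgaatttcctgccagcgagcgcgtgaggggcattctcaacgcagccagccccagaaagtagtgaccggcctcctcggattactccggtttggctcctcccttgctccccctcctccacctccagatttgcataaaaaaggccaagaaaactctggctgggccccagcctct
Fzd7: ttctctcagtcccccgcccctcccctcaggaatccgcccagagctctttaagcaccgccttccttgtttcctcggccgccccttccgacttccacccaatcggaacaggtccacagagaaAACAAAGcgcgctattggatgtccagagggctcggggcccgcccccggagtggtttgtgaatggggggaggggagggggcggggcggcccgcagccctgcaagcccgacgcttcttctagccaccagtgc
The Wnt7a window lies at chr6:91411354-91411603 on the minus strand, with 77.6% G or C and no match. The Sfrp2 window lies at chr3:83766071-83766320 on the plus strand, with 63.6% G or C and no match. The Fzd7 window lies at chr1:59481897-59482146 on the plus strand, with 65.2% G or C and 1 match, AACAAAG, which is the motif CTTTGTT read on the other strand and starts 130 bases before the annotated start. Of the 4 Lef1 windows, which are not printed, 1 held a match, TACAAAG. The 4 motifs differ in their last 2 letters and so cannot share a stretch on one strand. Among all 32851 windows of that length, 3.21% held CTTTGAT, 4.46% CTTTGAA, 5.03% CTTTGTT and 3.20% CTTTGTA, and 14.8% held any of them. The median G or C content of all windows was 52.4%.

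RNA of the 10 samples was read on Affymetrix arrays of 3 chip designs (U74Av2, U74Bv2 and U74Cv2), 1 array of each a sample and 30 in total. A value is a linear intensity of a probe set on an array, with array medians of 177 to 278, and precision is limited by how few arrays a set of samples has. The labels do not say that the 3 ES samples were separate cultures, so the p-values reflect only how far these samples differ, which may be technical, and the spread of either set of aggregate samples also holds its days and sorts. Between pairs of ES samples, 8.19% to 13.9% of the 25690 probe sets tested differed by 1 or more on the log2 scale. Control probes of the 3' and 5' ends of actin, whose ratio goes up as RNA degrades, gave 1.34 for day 5 and 1.33 for E-cadherin-negative cells of day 2 on U74Av2, 0.939 to 1.15 for the remaining samples and 1.70 for ES 3, which was the highest on all 3 chips. The sort labels were checked against marker genes. The summed intensity of 7 neuroectoderm markers was 15252 to 19742 in Sox1-positive cells, 7836 to 11622 in other aggregate cells and 7671 to 8913 in ES cells. Not every marker in that sum went with it. Sox1 itself read 308, 309.7 and 252 in Sox1-positive cells of days 3, 4 and 5. It read 152 to 253 in other aggregate cells and 138 to 173 in ES cells, so day 5 lay within the other aggregate cells. Sox2 read 4128 to 5386 in Sox1-positive cells, 3746 to 6619.6 in other aggregate cells and 5333 to 6956 in ES cells. The summed intensity of 7 ES cell markers was 2262 to 7619 in Sox1-positive cells, 9532 to 28001 in other aggregate cells and 34007 to 42614 in ES cells. The day 2 E-cadherin-negative sample stood apart from the other aggregate samples, with an ES marker sum of 9532 against 23731 to 28001. Its signal for Cdh1, the E-cadherin gene, was 565, against 572 in the E-cadherin-positive sample, so the sort was not seen in that RNA. The sample was kept, and member results that change without it say so.

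Sox1-positive cells were set against ES cells to show what the neuroectodermal sort gained and lost. The ligand Wnt7a and the antagonists Sfrp1 and Sfrp2 were many-fold higher in Sox1-positive cells, the receptor Fzd7 was moderately higher, and the antagonist Notum was lower. For Wnt8a and Lef1 the difference did not pass the test. Of the 11 member probe sets tested, 5 were called higher and 1 lower by limma at an adjusted p under 0.05, where 5.71% of all tested probe sets were called higher and 4.84% lower. Samples did not overlap for the same numbers, 5 higher and 1 lower, against 15.4% and 15.1% of all tested probe sets. These are counts over the members that passed the filter, and Wnt7a passed it through its Sox1-positive samples alone, so they are a description.

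**Figure D1:**
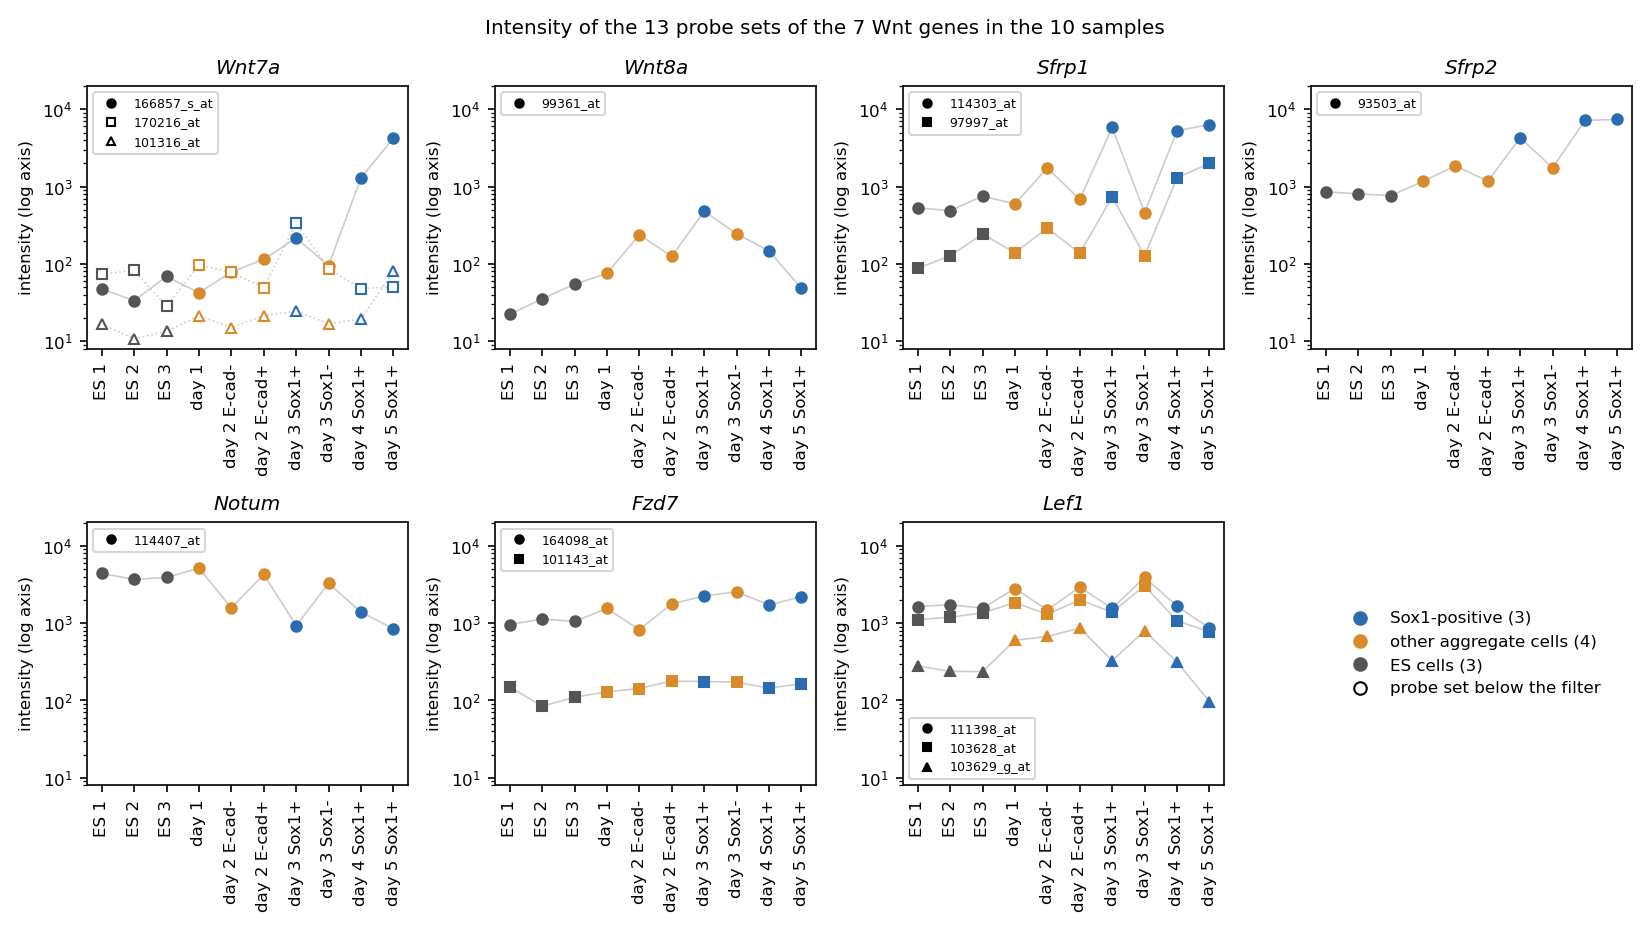
Intensity (log axis) of the 13 member probe sets in each of the 10 samples, 1 panel a gene; colours give the set of samples, open symbols the 2 probe sets below the filter, and grey lines only join the points of a probe set. Sfrp1 and Sfrp2 are highest and Notum lowest in the 3 Sox1-positive samples, Wnt7a climbs to 4239 on day 5, and Wnt8a peaks at 481 in the day 3 Sox1-positive sample.

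The ligand Wnt7a is known from the developing nervous system. Probe set 166857_s_at of U74Cv2 read 216, 1301 and 4239 in Sox1-positive cells of days 3, 4 and 5. It read 42.6 on day 1, 78.4 and 115 in E-cadherin-negative and E-cadherin-positive cells of day 2 and 94.8 in Sox1-negative cells of day 3, and 47.6, 33.4 and 68.9 in ES cells. The 3 Sox1-positive samples lay above all others and differed widely among themselves, day 5 being the highest. On the scale of log2(intensity + 16) used throughout, which understates changes at low signal, they stood 1.85, 4.35 and 6.05 above the ES mean. Day 1 lay within the ES samples, which spread from -0.38 to 0.40 around that mean, and the other 3 aggregate samples stood 0.55 to 1.02 above it. The difference of Sox1-positive from ES cells was 4.08 ± 0.96 (SE, n = 3 each), with a limma adjusted p of 0.0392. It was still called under 9 of 17 alternative settings, with adjusted p between 0.00142 and 0.125 over all 17. The call ended with no filter, with adjustment within each chip, without any 1 of the 3 ES samples, without day 4, without day 5, and without ES 3 and day 5 together. Summed markers of neurons and of endoderm were also highest on day 5. The summed intensity of 6 neuron markers was 7127, 6748 and 14227 in Sox1-positive cells of days 3, 4 and 5, 5077 to 10560.0 in other aggregate cells and 6730.3 to 7234 in ES cells. That of 7 endoderm markers was 934, 949 and 2139 in Sox1-positive cells of days 3, 4 and 5, 858 to 1241 in other aggregate cells and 676 to 1103 in ES cells. Foxa2, a factor of endoderm and floor plate that was looked at after its values were seen, read 1315 on day 5 and 28.1 to 55.3 in all other samples. It thus made up most of the endoderm sum of day 5, and the rest of that list did not rise together. Among Sox1-positive samples Gata4, Gata6 and Sox7 were lowest on day 5, Sox17 and Ttr were highest there, and Afp was neither. None of these markers was listed at 0, and their part in the Wnt7a signal was not tested. In these bulk samples fewer cells that express a gene and less RNA in each cell cannot be told apart.

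The other Wnt7a probe sets lay below the filter and did not repeat this course. Probe set 170216_at read 338, 48.1 and 50.3 in Sox1-positive cells of days 3, 4 and 5, 49.5 to 96.8 in other aggregate cells and 28.3 to 82.6 in ES cells. It was thus high in the day 3 Sox1-positive sample alone, and its correlation with 166857_s_at over the 10 samples was -0.15. Probe set 101316_at of U74Av2 read 24.6, 19.4 and 80.8 in Sox1-positive cells, 15.0 to 21.5 in other aggregate cells and 10.8 to 16.6 in ES cells. Its highest sample was also day 5, and its correlation with 166857_s_at was 0.82. The suffix of 166857_s_at is one that Affymetrix gives to probe sets whose probes match more than one transcript, so the size of the Wnt7a difference rests on 1 of 3 probe sets. The part of other transcripts in its signal was not tested.

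Wnt8a, a ligand of the beta-catenin branch known in mouse embryos from the primitive streak and the hindbrain, was measured by probe set 99361_at. It read 481, 147 and 48.3 in Sox1-positive cells of days 3, 4 and 5. It read 75.5 on day 1, 238 and 125 in E-cadherin-negative and E-cadherin-positive cells of day 2 and 246 in Sox1-negative cells of day 3, and 22.3, 35.4 and 54.7 in ES cells. Both samples of day 3 and the E-cadherin-negative sample of day 2 were the highest, and the day 5 sample lay in the range of the ES cells. The difference of Sox1-positive from ES cells was 1.74 ± 0.64 (SE, n = 3 each), with a limma adjusted p of 0.135. It was called under 3 of 16 alternatives: without day 5, without ES 3 and day 5 together, and with a slope on day as a covariate. The 4 other aggregate samples all lay above the 3 ES samples, and that difference was 1.72 ± 0.38, with a limma adjusted p of 0.207 that reached the threshold under none of 15 alternatives. The ES mean of 37.5 lay below the filter at 78.6, so Wnt8a passed the filter through its aggregate samples. Between Sox1-positive and other aggregate cells the difference was 0.02 ± 0.63, with an unadjusted 95% interval of -1.41 to 1.45. Markers of the primitive streak and mesoderm were listed beside it. Of 8, 6 were measured (T and Mixl1 were not analysed here) and 3 passed the filter. The summed intensity of the 6 was 439 to 562 in Sox1-positive cells, 676 to 719 in other aggregate cells and 370 to 498 in ES cells. Kdr read 227 to 313 in other aggregate cells and 66.0 to 102 in ES cells. In Sox1-positive cells of days 3, 4 and 5 it read 74.7, 78.6 and 196. Eomes read 121 to 186 in other aggregate cells, 52.1 to 111 in ES cells and 119, 69.7 and 32.3 in those Sox1-positive cells. The values of Mesp1, Tbx6, Gsc and Meox1 overlapped between other aggregate and ES cells. None of the 6 was listed at 0, and their part in the Wnt8a signal was not tested.

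Sfrp1, a secreted frizzled-related protein, was measured by 2 probe sets. The brighter, 114303_at of U74Bv2, read 5814, 5291 and 6327 in Sox1-positive cells of days 3, 4 and 5. It read 598 on day 1, 1747 and 683 in E-cadherin-negative and E-cadherin-positive cells of day 2 and 462 in Sox1-negative cells of day 3, and 532, 488 and 753 in ES cells. The Sox1-positive samples were level with each other from day 3, the day 2 E-cadherin-negative sample lay between them and the rest, and the other 3 aggregate samples lay at or near the ES range. The mean was 5811 ± 518 in Sox1-positive cells and 591 ± 142 in ES cells (SD, n = 3 each), a log2 difference of 3.28 ± 0.22 (SE) with a limma adjusted p of 0.00026. Probe set 97997_at of U74Av2 read 736, 1300 and 2002 in Sox1-positive cells of days 3, 4 and 5, 128 to 291 in other aggregate cells and 88.2 to 243 in ES cells. Its log2 difference was 3.00 ± 0.42, with a limma adjusted p of 0.00475. Both calls were kept under all 17 alternatives, and the probe sets correlated at 0.96 over the 10 samples. They differed within the Sox1-positive samples: on 97997_at day 5 stood 1.42 above day 3 on the log2 scale, and on 114303_at 0.12 above it.

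Sfrp2, its close relative, was measured by probe set 93503_at. It read 4282, 7187 and 7393 in Sox1-positive cells of days 3, 4 and 5. It read 1167 on day 1, 1863 and 1175 in E-cadherin-negative and E-cadherin-positive cells of day 2 and 1750.1 in Sox1-negative cells of day 3, and 855, 806 and 765 in ES cells. No groups overlapped: every aggregate sample was above the ES cells, and every Sox1-positive sample above every other aggregate sample. The log2 difference of Sox1-positive from ES cells was 2.89 ± 0.24 (SE, n = 3 each), with a limma adjusted p of 0.00054, and it was called under all 17 alternatives. That of other aggregate cells from ES cells was 0.84 ± 0.22 (n = 4 and 3), with a limma adjusted p of 0.278 and no call under any of 16 alternatives. The samples stood above the ES mean by 0.52 on day 1, 1.19 and 0.53 in E-cadherin-negative and E-cadherin-positive cells of day 2, and 1.10 in Sox1-negative cells of day 3, while the ES samples themselves spread from -0.08 to 0.08.

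Notum, the Wnt deacylase, ran the other way. Probe set 114407_at read 931, 1388 and 842 in Sox1-positive cells of days 3, 4 and 5. It read 5134 on day 1, 1574 and 4263 in E-cadherin-negative and E-cadherin-positive cells of day 2 and 3266 in Sox1-negative cells of day 3, and 4387, 3676 and 3890.3 in ES cells. The 3 Sox1-positive samples were the lowest, the day 2 E-cadherin-negative sample was next, and the remaining aggregate samples lay around the ES range. The mean was 1054 ± 293 in Sox1-positive cells and 3984 ± 365 in ES cells (SD, n = 3 each). The log2 difference was -1.93 ± 0.23 (SE), with a limma adjusted p of 0.00291, and it was called under all 17 alternatives.

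Fzd7, a Frizzled receptor that ES cells also express, differed less. Probe set 164098_at of U74Bv2 read 2233, 1717 and 2193 in Sox1-positive cells of days 3, 4 and 5. It read 1548 on day 1, 821 and 1781 in E-cadherin-negative and E-cadherin-positive cells of day 2 and 2549 in Sox1-negative cells of day 3, and 959, 1131 and 1050.0 in ES cells. The Sox1-positive samples lay above the ES cells but among the other aggregate samples, of which Sox1-negative cells of day 3 were the highest and E-cadherin-negative cells of day 2 the lowest of all 10. The log2 difference of Sox1-positive from ES cells was 0.95 ± 0.19 (SE, n = 3 each), with a limma adjusted p of 0.0206. It was called under 10 of 17 alternatives, and the call ended without any 1 of the 3 ES samples, without day 3, without day 5, without ES 3 and day 5 together, and in one fit of all 10 samples (highest adjusted p 0.123). Probe set 101143_at of U74Av2 read 144 to 175 in Sox1-positive cells, 130 to 178 in other aggregate cells and 84.0 to 150 in ES cells. Its difference was 0.47 ± 0.22, with a limma adjusted p of 0.242, and it correlated with 164098_at at 0.59 over the 10 samples.

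Lef1, the DNA-binding partner of beta-catenin, was measured by 3 probe sets. The brightest, 111398_at of U74Bv2, read 1548, 1663 and 861 in Sox1-positive cells of days 3, 4 and 5. It read 2796 on day 1, 1479 and 2936 in E-cadherin-negative and E-cadherin-positive cells of day 2 and 3896 in Sox1-negative cells of day 3, and 1638, 1729 and 1559 in ES cells. Sox1-negative cells of day 3 were the highest of the 10 samples and Sox1-positive cells of day 5 the lowest, while Sox1-positive cells of days 3 and 4 lay at the ES level. Against ES cells the Sox1-positive cells differed by -0.33 ± 0.27 on 111398_at, -0.21 ± 0.24 on 103628_at and -0.19 ± 0.40 on 103629_g_at (SE, n = 3 each). The limma adjusted p-values were 0.528, 0.648 and 0.832, and the unadjusted 95% interval on 111398_at was -0.95 to 0.30.

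The other aggregate cells were higher than ES cells on each Lef1 probe set, and on 1 of the 3 the difference passed the test. Probe set 103629_g_at of U74Av2 read 600.1 on day 1, 671 and 863 in E-cadherin-negative and E-cadherin-positive cells of day 2 and 794 in Sox1-negative cells of day 3, against 280, 238 and 236 in ES cells. Its 327, 314 and 96.6 in Sox1-positive cells of days 3, 4 and 5 lay below all 4. The difference of other aggregate from ES cells was 1.48 ± 0.19 (SE, n = 4 and 3), with a limma adjusted p of 0.0449. It was called under 8 of 16 alternatives, and the call ended with no filter, in one fit of all 10 samples, and without any 1 of the 3 ES samples, of the 2 samples of day 2 or of Sox1-negative cells of day 3 (highest adjusted p 0.197). On 111398_at the same difference was 0.67 ± 0.30 with a limma adjusted p of 0.498, and on 103628_at it was 0.68 ± 0.27 with 0.435. The 3 probe sets correlated at 0.84 to 0.95 over the 10 samples and differed in the day 2 E-cadherin-negative sample, which stood -0.15, 0.09 and 1.37 from the ES mean on 111398_at, 103628_at and 103629_g_at. Probe sets 103628_at and 103629_g_at are both of U74Av2 and are listed under the same source sequence.

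Other aggregate cells against ES cells asked which members moved outside the Sox1-positive sort. The probe set of Lef1 above was the 1 of 11 called, higher, where limma called 0.0156% of the 25690 probe sets higher and 0.0506% lower (0.0662% either way). Those are 4 and 13 probe sets. At an unadjusted limma p under 0.05, 4 member probe sets were higher and none lower, where 10.3% of all tested probe sets passed either way. Samples did not overlap for 3 member probe sets, of Wnt8a, Sfrp2 and Lef1, all higher, against 5.51% of all tested probe sets higher and 5.05% lower. Wnt8a had a mean below the filter in ES cells (37.5 against 78.6) and passed it through its aggregate samples. Its place in these counts is thus a description. For Sfrp1 on 114303_at the difference was 0.38 ± 0.41 and for Notum -0.28 ± 0.37, and without the day 2 E-cadherin-negative sample they were -0.02 and 0.06.

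**Figure D2:**
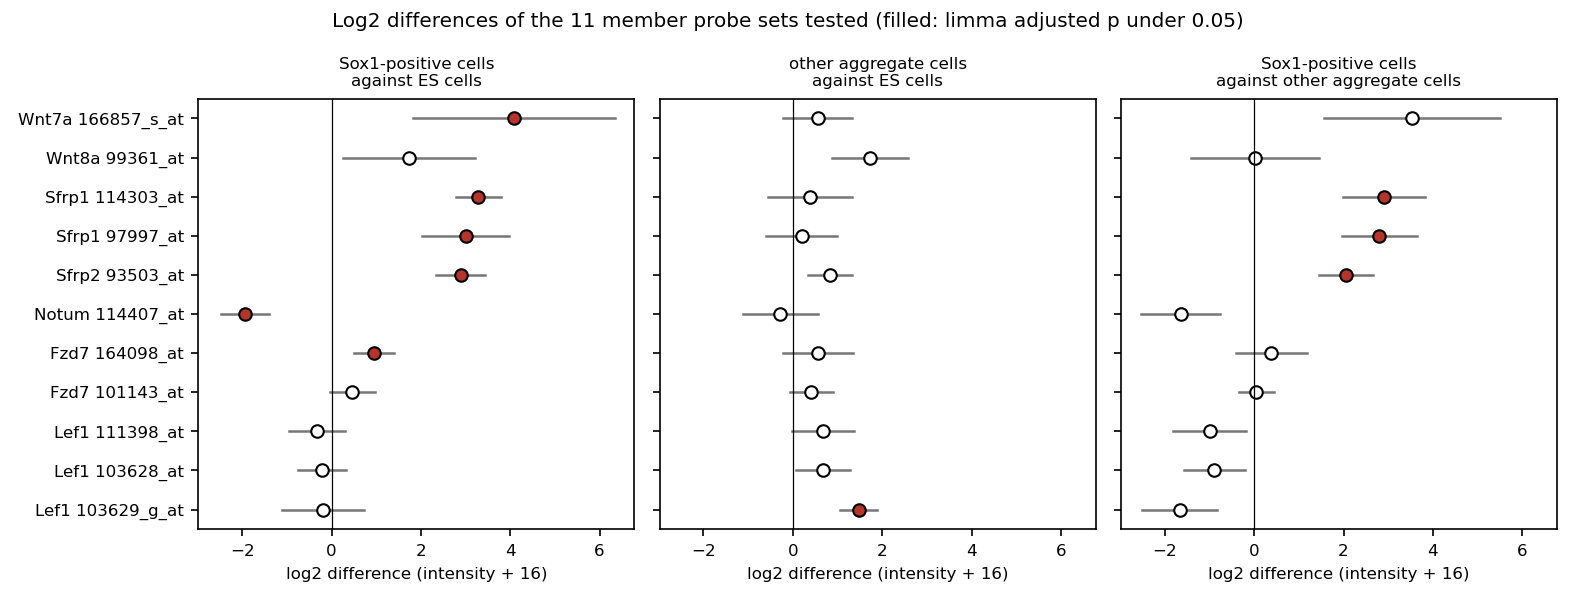
Log2 differences of the 11 member probe sets tested, in Sox1-positive against ES cells (left), other aggregate against ES cells (middle) and Sox1-positive against other aggregate cells (right); bars are 95% intervals, not adjusted for the number of probe sets, and filled points passed a limma adjusted p under 0.05. Both Sfrp1 probe sets and Sfrp2 are filled on the left and the right, and the lowest Lef1 row is the 1 filled point in the middle.

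Sox1-positive cells were then set against the other aggregate cells, with the 3 Sox1-positive samples entering again. Sfrp1 and Sfrp2 were higher, and limma called no member lower (4 were lower at an unadjusted p under 0.05, that of Notum and the 3 of Lef1). Of 11 member probe sets 3 were called higher, where limma called 0.58% of all tested probe sets higher and 0.864% lower (1.44% either way, and 19.8% at the unadjusted threshold). Samples did not overlap for 4 higher (Wnt7a, both of Sfrp1, and Sfrp2) and 2 lower (Notum and 103629_g_at of Lef1), against 8.99% and 9.29% of all tested probe sets. Wnt7a passed the filter through its Sox1-positive samples alone, so its place in that count is a description. For Sfrp1 the log2 difference was 2.91 ± 0.40 on 114303_at (SE, n = 3 and 4) with a limma adjusted p of 0.0236, and 2.80 ± 0.37 on 97997_at with 0.0233. For Sfrp2 it was 2.06 ± 0.27, with a limma adjusted p of 0.0233. These 3 calls ended, at adjusted p up to 0.0968, when day 1, the day 2 E-cadherin-positive, the day 3 Sox1-negative, the day 4 or the day 5 sample was left out, and that of 114303_at also without day 3 Sox1-positive cells.

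Wnt7a differed by 3.53 ± 0.86 between Sox1-positive and other aggregate cells, with a limma adjusted p of 0.0787, and was called under 3 of 16 alternatives. Notum differed by -1.65 ± 0.39, with a limma adjusted p of 0.0719, and was called under 4 of 16, one of them without the day 2 E-cadherin-negative sample. For Lef1 the differences were -0.999 ± 0.36 on 111398_at, -0.89 ± 0.30 on 103628_at and -1.67 ± 0.37 on 103629_g_at, with limma adjusted p-values of 0.168, 0.148 and 0.0601. All 3 Lef1 probe sets were called without the day 2 E-cadherin-negative sample, which was the 1 alternative of 16 that called 111398_at and 103628_at, while 103629_g_at was called under 6. Calls over all tested probe sets also went up without that sample, from 371 to 2227, so this gain was not particular to Lef1 or Notum. For Fzd7 the differences were 0.39 ± 0.35 on 164098_at, with an unadjusted 95% interval of -0.40 to 1.18, and 0.05 ± 0.18 on 101143_at. Day and sort differ together between these sets of samples and cannot be told apart.

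Sorts of the same day had 1 sample on a side and were not tested. On day 3, Sox1-positive cells had 5814 for Sfrp1 on 114303_at, against 462 in Sox1-negative cells, a log2 difference of 3.61. A lower difference was seen for 99.9% of the probe sets tested. The second Sfrp1 probe set differed by 2.39, Sfrp2 by 1.28, Wnt7a by 1.07 and Wnt8a by 0.93. Notum differed by -1.79, and the 3 Lef1 probe sets by -1.32, -1.13 and -1.24 (in the order 111398_at, 103628_at and 103629_g_at). The Fzd7 probe sets differed by -0.19 and 0.02. So 4 of the 11 member probe sets were higher by 1 or more and 4 were lower by as much, where 7.6% and 7.77% of all tested probe sets were. Wnt7a passed the filter through its Sox1-positive samples alone, so its place in the count of higher probe sets is a description. Over the other pseudocounts and normalizations its difference ran from 0.82 to 1.18. Between these samples the summed intensity of neuroectoderm markers was 15529 in Sox1-positive and 9827 in Sox1-negative cells, and that of ES cell markers was 7619 in Sox1-positive and 23731 in Sox1-negative cells. Their part in the differences of the members was not tested.

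On day 2, E-cadherin-negative cells had 1574 for Notum, against 4263 in E-cadherin-positive cells, a log2 difference of -1.43. Fzd7 differed by -1.10 on 164098_at and -0.29 on 101143_at, and the Lef1 probe sets by -0.98, -0.62 and -0.35. Sfrp1 differed by 1.33 on 114303_at and 0.997 on 97997_at, Wnt8a by 0.85, Sfrp2 by 0.66 and Wnt7a by -0.47. So 1 member probe set, of Sfrp1, was higher by 1 or more (the other Sfrp1 probe set fell just short) and 2 were lower, of Notum and Fzd7, where 7.71% and 5.85% of all tested probe sets were. Markers of neurons, listed because a sorted aggregate can hold them, summed to 10560.0 in E-cadherin-negative and 6163 in E-cadherin-positive cells, with all 6 measured and none at 0. The actin ratio on U74Av2 was 1.33 in the E-cadherin-negative and 1.12 in the E-cadherin-positive sample. The part of either in these differences was not tested.

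**Figure D3:**
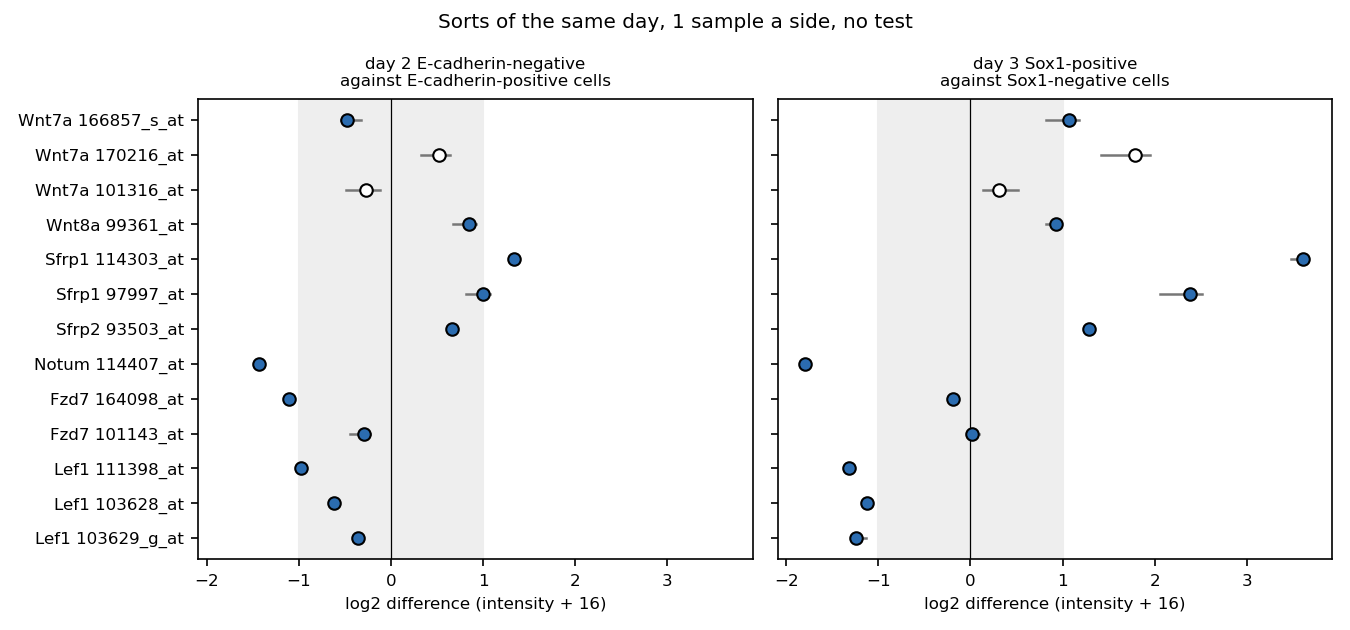
Log2 differences of the 13 member probe sets between sorts of day 2 (E-cadherin-negative minus E-cadherin-positive, left) and of day 3 (Sox1-positive minus Sox1-negative, right), 1 sample a side and no test; bars give the range over pseudocounts of 1 and 64 and over both other normalizations, the grey band runs from -1 to 1, and open points are probe sets below the filter. On day 3 Sfrp1 lies farthest right at 3.61 and Notum farthest left at -1.79.

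The pattern across the 10 samples was shared by some members and not others. As a description over samples that share days and sorts, the log2 signal of Sfrp1 correlated at 0.92 with that of Sfrp2 and at -0.95 with that of Notum. Wnt7a, read on 166857_s_at, correlated at 0.91 with Sfrp2, at 0.84 with Sfrp1 and at -0.78 with Notum. Its probe set 170216_at correlated with 166857_s_at at only -0.15. Lef1 correlated at 0.66 with Notum and at -0.66 with Sfrp1. Fzd7 and Wnt8a had no correlation above 0.58 in size with any other member, the highest being that of Fzd7 with Sfrp2. By order of level, Sfrp1 and Sfrp2 had the 3 Sox1-positive samples on top, Wnt8a had day 3 on top, and Lef1 had the day 3 Sox1-negative sample on top on 111398_at and 103628_at, with 863 in the day 2 E-cadherin-positive sample above its 794 on 103629_g_at.

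For each member the 3 genes most like it were taken, by Pearson correlation of log2(intensity + 16) over the 10 samples, among about 2360 genes with a range of at least 2 on that scale. For Wnt7a they were the atypical chemokine receptor Ackr3 (0.96), Ly6h (0.96) and the adhesion receptor Adgrg1 (0.95), and Ly6h read 614, 1464 and 3403 in Sox1-positive cells of days 3, 4 and 5, against 189 to 270 in ES cells. For Wnt8a they were the matrix protein gene Thbs4 (0.95), the hormone precursor Trh (0.90) and the immediate early factor Egr3 (0.87). Trh read 7288 in Sox1-positive and 5508 in Sox1-negative cells of day 3, 1089 on day 5 and 963 to 1509 in ES cells. For Sfrp1 they were the retinoic acid-binding protein gene Crabp2 (0.98), the formin Fhod3 (0.98) and the nuclear receptor Nr2f1 (0.98). For Sfrp2 they were E130307A14Rik (0.98), the guidance molecule Rgma (0.97) and the homeobox gene Six5 (0.97). For Notum they were the retinoic acid receptor Rarg (0.99), the signalling adaptor Gab1 (0.99) and the nuclear receptor Nr0b1 (0.98), a gene known from ES cells. Rarg read 49.9, 68.1 and 29.5 in Sox1-positive cells of days 3, 4 and 5, 94.3 in E-cadherin-negative cells of day 2, and 773 to 972 in ES cells. For Lef1 they were Ptgr1 (0.96), Lrig1 (0.94) and Cds1 (0.93). For Fzd7 the likeness was lower, with the growth factor Fgf15 (0.86), Rsf1os1 (0.84) and Fndc11 (0.84).

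**Figure D4:**
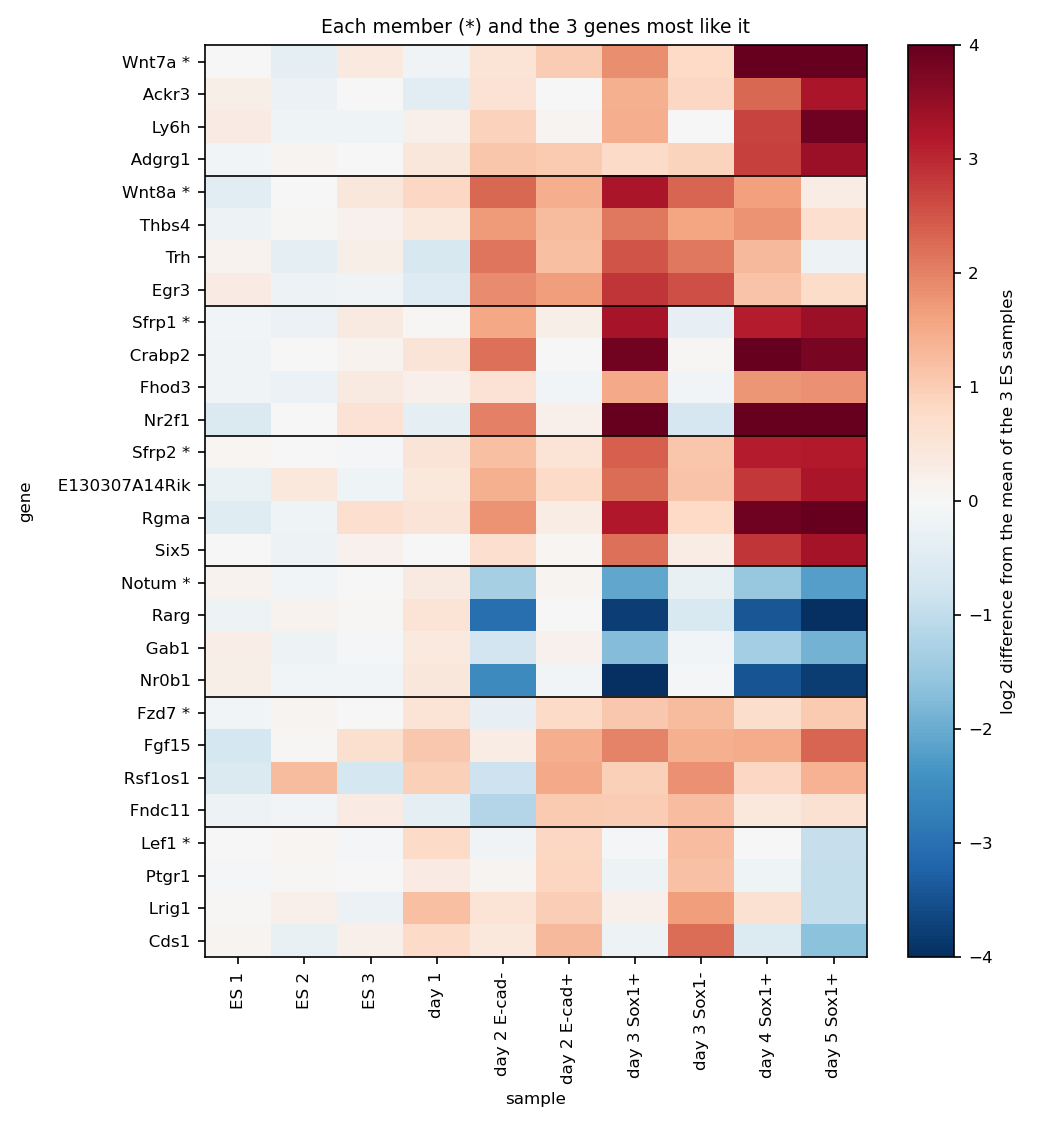
Log2 difference of each sample from the mean of the 3 ES samples, for the 7 member genes (starred) and the 3 genes most like each, with samples in columns from ES cells to day 5; the colour scale runs from blue (lower) to red (higher), and values beyond its ends are drawn at the end colour. Sfrp1 and Notum rows change colour in the 3 Sox1-positive samples and, more weakly, in the day 2 E-cadherin-negative sample, and Lef1 rows are red in day 1, day 2 E-cadherin-positive and day 3 Sox1-negative samples.

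The members were also set within a list of 107 Wnt pathway genes in 9 roles, of which 97 were on the chips under a name of their own and 86 passed the filter (1 probe set a gene). Between Sox1-positive and ES cells limma called 15 of the 86 higher and 5 lower, and 66 did not pass, with a median log2 difference of 0.37. Without the 7 members 11 of 79 were higher and 4 lower, with a median of 0.36. Among all 12941 genes 6.40% were higher and 6.17% lower, with a median of -0.01. The number of higher genes was 7 without ES 2 and 7 without day 4 (8.14% each time, against 2.86% and 2.81% of all genes), and that of lower genes was 3 without day 4. Among the genes called, Wnt7a and Frzb had a mean above the filter in their Sox1-positive samples alone, and Myc had one below it in those samples, so their calls and the counts that hold them are a description. The list was written with earlier results of these samples known, so the counts describe it and are no independent evidence of its direction.

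Of 14 ligands tested, Wnt7a was the 1 called, with a median of 0.39 over the list. Apart from both members the ligands lay between -0.25 (Wnt6) and 0.64 (Wnt5a). Of 4 genes of ligand secretion and agonists, with a median of 0.0039, 1 was called: Wls, the carrier of Wnt proteins to the cell surface. Wls (114639_at) read 2697, 2585 and 2088 in Sox1-positive cells of days 3, 4 and 5, 298 to 565 in other aggregate cells and 195 to 412 in ES cells. It thus rose in every Sox1-positive sample with no overlap, and its log2 difference from ES cells was 2.89 ± 0.30 (SE, n = 3 each) with a limma adjusted p of 0.00154, called under all 17 alternatives.

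Of 16 receptors and co-receptors 5 were called higher and 1 lower, with a median of 0.64. The 5 were all Frizzled receptors: Fzd2 (2.01), Fzd3 (1.38), Fzd1 (1.21), Fzd7 (0.95) and Fzd8 (0.88), where Fzd1 and Fzd8 fell outside the rule for naming genes and were added after their values were seen. Not every Frizzled receptor passed the test. Fzd4 (0.36), Fzd6 (0.91), Fzd9 (0.11) and Fzd10 (0.57), also added after their values were seen, were not called. Fzd5 (108784_at), another Frizzled receptor, fell. It read 199, 185 and 203 in Sox1-positive cells of days 3, 4 and 5, 360 to 1010 in other aggregate cells and 1626 to 2005 in ES cells, with no overlap. Its log2 difference was -3.12 ± 0.18, with a limma adjusted p of 0.00016, called under all 17 alternatives. The call of Fzd2 ended without day 3 and without day 4, and that of Fzd3 under 5 of 17 alternatives.

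Of 9 secreted antagonists 3 were higher (Sfrp1, Sfrp2 and Frzb) and 2 lower (Notum and Sfrp4), with a median of 0.77. Frzb (166263_at), a further frizzled-related protein, read 334, 764 and 697 in Sox1-positive cells of days 3, 4 and 5, 21.1 to 63.3 in other aggregate cells and 29.4 to 115 in ES cells. Its mean in Sox1-positive cells was 598, against 41.4 in other aggregate and 62.4 in ES cells, and the filter lay at 102, so it passed the filter through its Sox1-positive samples alone. Its log2 difference from ES cells was 3.04 ± 0.49, with a limma adjusted p of 0.0113, and the call ended without day 4. Sfrp4 (92469_at) differed by -0.77 ± 0.19, with a limma adjusted p of 0.0363, and its call ended under 8 of 16 alternatives.

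Of 15 genes of the cytoplasmic relay 2 were higher, with a median of 0.28, and both calls ended under 8 of 17 alternatives: the kinases Gsk3b (0.87) and Csnk1d (0.77), where the 3 other Gsk3b probe sets were not called, and of the 5 other Csnk1d probe sets, which ran from -0.73 to 1.08, 2 were called higher and none lower. Ctnnb1, which encodes beta-catenin, differed by 0.28 ± 0.16 with a limma adjusted p of 0.334, and Axin2, a feedback inhibitor known as a target of beta-catenin, by 1.06 ± 0.32 with 0.0822. Ctnnb1 and Axin2 were named after their values were seen. Of 13 nuclear effectors 1 was higher and 1 lower, with a median of 0.08. Ctnnbip1, an inhibitor of beta-catenin binding to TCF factors, differed by 1.04 ± 0.19 on 106444_at, while another of its probe sets was called the opposite way at -2.32. Tle5 (160215_at), a short relative of the Groucho co-repressors, differed by -1.73 ± 0.34 with a limma adjusted p of 0.0169, and its call ended without day 4.

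Of 4 beta-catenin targets tested, with a median of 0.25, 1 was called: Myc, lower, with a log2 difference of -1.64 ± 0.20 and a limma adjusted p of 0.00264. The others, which did not pass, were Ccnd1 at 0.63, Tnfrsf19 at 0.92 and Sp5 at -0.14 (named after their values were seen). Myc read 46.7, 55.9 and 48.2 in Sox1-positive cells of days 3, 4 and 5, 70.7 to 190.4 in other aggregate cells and 158 to 242 in ES cells, and was called under all 16 alternatives. Of 9 planar polarity genes 2 were higher, with a median of 0.68. Vangl2 (116084_at), a membrane protein of planar cell polarity, read 4504, 5610 and 4885 in Sox1-positive cells of days 3, 4 and 5, 1129 to 3317 in other aggregate cells and 1112 to 1450 in ES cells. Its log2 difference was 1.94 ± 0.20, with a limma adjusted p of 0.00144. Celsr1 (103516_at), an atypical cadherin of the same system, differed by 1.26 ± 0.19, with a limma adjusted p of 0.00593. Both were called under every alternative run. Neither of the 2 genes of receptor turnover was called, and their median was -0.0012.

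**Figure D5:**
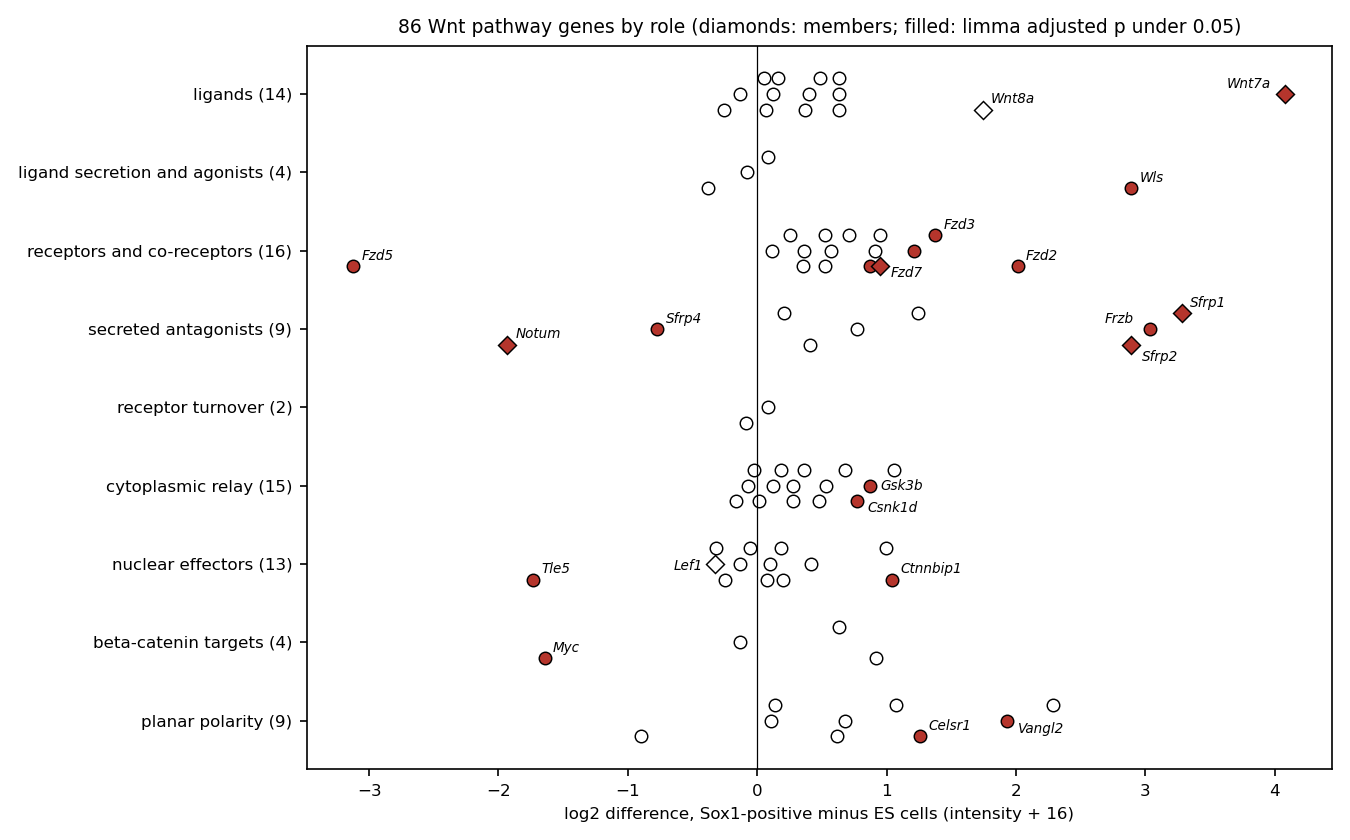
Log2 difference of Sox1-positive from ES cells for 86 Wnt pathway genes in 9 roles (rows, with the number tested), 1 point a gene; diamonds are members, filled points passed a limma adjusted p under 0.05, and points are spread vertically only to be seen. Wnt7a lies highest at 4.08 and the receptor Fzd5 lowest at -3.12, and among the secreted antagonists Sfrp1 lies at 3.28 and Notum at -1.93.

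Between other aggregate and ES cells limma called none of the 86 pathway genes by the probe set kept for each gene, with a median of 0.13 (over all 12941 genes 1 was called higher and 3 lower). At an unadjusted limma p under 0.05, 6 of the 86 were higher (6.98%) and 3 lower (3.49%), near the 5.05% and 5.00% of all genes that were. Between Sox1-positive and other aggregate cells 5 were higher (Wls, Sfrp1, Sfrp2, Frzb and Celsr1) and 1 was lower (Fzd5), with a median of 0.23, where 0.61% of all genes were higher and 1.14% lower. Frzb passed the filter through its Sox1-positive samples alone, so the counts of higher genes that hold it are a description. Without the day 2 E-cadherin-negative sample 10 were higher (11.6%) and 5 lower (5.81%), and calls over all genes went up with them, to 5.53% higher and 4.68% lower. Without the day 2 E-cadherin-positive sample none of the 86 was called and 1 of all genes was, and without the day 4 sample none of the 86 and 2 of all genes were.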

How the data were processed

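RNA of the 10 samples was measured as biotin-labelled cRNA on 30 Affymetrix arrays. The deposited values are linear intensities, which the authors had scaled before deposit: in the deposited tables the mean without the highest and lowest 2% of each array is 500.1 to 500.3. The software that read the arrays, with its background correction, is not given in the sources used here. Without the 198 controls, 29131 probe sets had 1 gene in the platform tables, 724 had several and 6846 had none. Symbols matched RefSeq names (GRCm38.p6). The deposited intensities were analysed as log2(intensity + 16). The filter was a mean over the 10 samples at the 30th percentile of the chip, and 25690 probe sets passed. Sets of samples were compared with limma 3.58.1 (R 4.3.3) per chip, two-sided, with Benjamini-Hochberg adjustment over the 3 chips and a threshold of 0.05. The code was tested on simulated data. Where 1 probe set stood for a gene, the one of highest mean log2 value was taken.

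The members, gene lists and tests were chosen with earlier results of these data known. Named were all member probe sets, in each pathway list up to 2 of the largest called differences each way between Sox1-positive and ES cells, and the 3 genes most correlated with each member. Other genes are said to be added. Alternatives were a filter at the 60th percentile or none, a pseudocount of 1 or of 64, scaling to the 75th percentile, quantile normalization, a mean-variance trend, adjustment within each chip, one fit of all 10 samples, a slope on day, leaving out each sample, leaving out ES 3 and day 5, and for the sorts a threshold of 2. Plots used matplotlib 3.10.9 in Python 3.11.15.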

Additional observations from a re-analysis of the deposited data

Results flagged for a closer look

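Probe set 97997_at of Sfrp1 was flagged among the 4 other aggregate samples. The day 2 E-cadherin-negative sample read 291, against 140, 138 and 128 on day 1, in the day 2 E-cadherin-positive and in the day 3 Sox1-negative sample. Its gap to the nearest of these, divided by the range of the 4 samples, was 0.926, above Dixon's critical value for 4 samples. That critical value is meant for replicates, whereas these 4 samples differ in day and sort, so the flag is a description. Even among replicates chance alone flags about 1 in 20 groups, and the rule was run on all 13 member probe sets.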

How the results depend on the processing

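Of the alternatives for the member probe sets in the 3 tested comparisons, 461 kept the direction and the side of the threshold, 39 kept the direction but lost the call, 18 kept it and gained the call, and 15 changed sign. The calls of Sfrp1, Sfrp2 and Notum in Sox1-positive against ES cells were kept throughout. No paired analysis was possible because groups compared share fewer than 2 replicate numbers.

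Sox1-positive against ES cells gave 2710 probe sets called, 1233 to 2162 when 1 sample was left out (1233 without ES 2, 1681 without ES 3, 1290.0 without day 4) and 1055 without ES 3 and day 5 together. Other aggregate against ES cells gave 17 (4 higher, 13 lower). It gave 10 (1 higher, 9 lower) after quantile normalization, 10 with no filter, 26 with the filter at the 60th percentile, 28 with a pseudocount of 64, 28 with the trend, and 5 to 20 when 1 sample was left out. Sox1-positive against other aggregate cells gave 371 (149 higher, 222 lower). It gave 117 higher and 142 lower after quantile normalization, 201 with a pseudocount of 1 and 694 with one of 64, 131 with no filter and 679 with the filter at the 60th percentile. It gave 790 with the trend, 596 with adjustment within each chip and 1131 in one fit of all 10 samples. When 1 sample was left out it gave 4 (without day 4) to 2227 (without the day 2 E-cadherin-negative sample). The sort of day 2 gave 3484 probe sets past 1, 5735 with no filter, 1430 with the stricter one and 603 past 2; that of day 3 gave 3949, 6461, 1654 and 830.

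The values that changed sign were of differences that had not passed the test. In Sox1-positive against other aggregate cells, Wnt8a was -0.025 after scaling to the 75th percentile, -0.022 with a pseudocount of 1 and -0.74 to 0.73 when 1 sample was left out. There 101143_at of Fzd7 ran from -0.024 to 0.13. In other aggregate against ES cells and with 1 sample left out, 114303_at of Sfrp1 ran from -0.017 to 0.61, 97997_at from -0.10 to 0.56 and Notum from -0.50 to 0.063. In Sox1-positive against ES cells, 103628_at of Lef1 ran from -0.41 to 0.00237 and 103629_g_at from -0.47 to 0.34. Without ES 3 and day 5 together these were 0.081 and 0.30. The causes were not tested. No scaling moved the median of all probe sets by more than 0.1 on the log2 scale. The files carry no detection calls, so how far dim probe sets stood above background is unknown.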

Other observations

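Among pathway genes whose difference did not pass the test, 2 were picked after their values were seen. Sfrp5 (105505_at), another frizzled-related protein, read 402 in Sox1-positive cells of day 3 and 347 in E-cadherin-negative cells of day 2. In the other samples it read 63.3 and 64.7 in Sox1-positive cells of days 4 and 5, 19.0 to 175 in other aggregate cells and 30.5 to 72.7 in ES cells. Celsr2 (136592_f_at), a planar polarity cadherin, read 2122, 4656 and 13517 in Sox1-positive cells of days 3, 4 and 5, 604 to 2547 in other aggregate cells and 712 to 1563 in ES cells. Its log2 difference of Sox1-positive from ES cells was 2.29 ± 0.67 (SE, n = 3 each), with a limma adjusted p of 0.0782. On other probe sets of Celsr2 that difference was smaller, at 1.70 on 92363_at and 0.79 on 92364_at.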
